A study of Mus musculus with 10 samples.

Results

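The histone genes of mouse embryonic stem cells fall into 70 rows of the gene table named for the Hist1, Hist2, Hist3 and Hist4 clusters (the Hist genes, mostly replication-dependent) and 10 rows of variant histone genes outside those clusters. These 80 rows were taken by gene symbol alone from 49624 rows of different name. All 10 variant rows passed the filter on low values (at least 10 normalised counts in at least 2 libraries), against 6 of the 70 Hist rows.

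RNA was sequenced from 10 libraries of embryonic stem cells grown in 2i/LIF, a serum-free medium with the MEK inhibitor PD0325901, the GSK3 inhibitor CHIR99021 and the cytokine LIF. In the first experiment the cells were Mof fl/fl with Cre-ER TM on C57BL/6J, labelled as Mof knockout (KO) or wild type (WT), and had 3 days of 100 nM 4-hydroxytamoxifen or of ethanol. The sources used here do not say which group had which, name no Mof-intact group with active Cre, and give no number of clones. Mof is the gene Kat8, which encodes an acetyltransferase of histone H4. In the second experiment E14tg2a cells had etomoxir for 4 days (ETO), or etomoxir for 4 days followed by 4 days without it (Released). Cells given water (Control) are listed with 4 days of treatment. Released cells thus also differed from ETO and Control cells in days of culture. Etomoxir inhibits the CPT1 enzymes that bring long-chain fatty acids into mitochondria. Each of the 5 groups had 2 libraries, named biological duplicates, so the p-values speak of the spread among these libraries, which may be technical.

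Replication-dependent histone genes supply the bulk of histone protein during S phase. Their mRNAs normally end just after a stem-loop that is bound by SLBP, the stem-loop binding protein, in place of a poly(A) tail. Variant histone genes mostly lie apart from the histone clusters, mostly give polyadenylated mRNAs, and are transcribed outside S phase too. Their proteins are placed by dedicated chaperones: H3.3 by HIRA and DAXX with ATRX, and H2A.Z by the SRCAP and p400 complexes. A single Hist gene can also give a polyadenylated mRNA when transcription runs past the stem-loop to a poly(A) signal. Whether polyadenylated RNA was selected for these libraries is not given in the sources used here.

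The ends of the histone transcripts are shown because they are where the Hist genes that passed the filter and those that did not differ in their annotation. The filter itself favours longer transcripts. The stem-loop was searched by the consensus of replication-dependent histone mRNAs on the sense strand of GENCODE M21 transcripts (GRCm38), and the poly(A) signal as AATAAA or ATTAAA within the last 40 bases. Sites are printed 5′ to 3′ on the strand of the gene, in the 3′ UTR, with the matched letters in capitals.
Hist1h2ab, stem-loop (chr13:23751567-23751592, plus strand): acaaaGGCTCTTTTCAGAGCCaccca
Hist1h1c, stem-loop (chr13:23739507-23739532, plus strand): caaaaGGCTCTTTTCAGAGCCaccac
Hist1h1c, poly(A) signal (chr13:23740332-23740357, plus strand): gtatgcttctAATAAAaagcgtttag
Hist1h4i, stem-loop (chr13:22040961-22040986, minus strand): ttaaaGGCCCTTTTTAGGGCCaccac
Hist1h4i, poly(A) signal (chr13:22040641-22040666, minus strand): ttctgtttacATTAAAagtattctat
Hist2h2be, poly(A) signal (chr3:96223707-96223732, plus strand): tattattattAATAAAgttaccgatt
H2afx, stem-loop (chr9:44335235-44335260, plus strand): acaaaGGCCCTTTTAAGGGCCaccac
H2afx, poly(A) signal (chr9:44336033-44336058, plus strand): ggctaattttATTAAAggatcgtttg

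Hist1h2ab, which did not pass the filter, is a Hist gene of the usual form: its annotated transcript ends 11 bases after the last capital of the stem-loop. The transcript of Hist1h1c ends 840 bases after the stem-loop and that of Hist1h4i 330 bases after it, both past a poly(A) signal. Among the variant genes the stem-loop motif was found in H2afx alone, whose transcript also runs on for 822 bases to a poly(A) signal. The motif was found in 42 of the 70 Hist genes, and in 45 of 21877 protein-coding genes (0.206%), of which 43 are histone genes described here. The commonest form of the loop, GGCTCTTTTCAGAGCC, was shared by 26 genes, and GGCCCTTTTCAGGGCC by 7, all of them H4 genes. The forms printed for Hist1h4i and H2afx were found in 2 genes and in 1 gene.

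A poly(A) signal near the transcript end was annotated for 5 of the 6 Hist genes that passed the filter (83.3%) and for 12 of the 64 that did not (18.8%). It was present in 9 of the 10 variant genes, in H2afy only in a transcript not annotated as protein-coding. A gene was counted if any of its annotated transcripts, coding or not, had the signal. Of 58797 single protein-coding transcripts 48.7% had it, a share of transcripts that cannot be set against these shares of genes. The longest annotated transcript had a median of 1692.5 bases for the 6 and 522 bases for the 64. Hist1h2bc, the 1 gene of the 6 with no such signal, is annotated as a spliced gene in which neither motif was found. Of the 17 Hist genes with a poly(A) signal 5 exceeded a mean of 0.5 FPKM and 3 were at 0, and of the 53 without one 4 exceeded it and 14 were at 0. A match describes the letters in these windows and does not show where an mRNA ended. The Hist genes are also alike in sequence: the median share of a gene's 50-base words that occur in another gene's transcripts was 57.5% for the 64 and 29.8% for the 6. It was 8.33% for the variant genes. How the authors counted reads with several possible origins is not given in the sources used here, so low values of near-identical Hist genes are uncertain.

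Per unit of length, most variant genes were far above the Hist genes in these libraries. Mean FPKM over the 10 libraries ran from 7.33 for H1fx to 205 for H3f3b among the variant genes, with a median of 47.8. Among the 6 Hist genes that passed the filter it ran from 0.319 for Hist2h2be to 6.62 for Hist1h2bc. Among the other 64 the median was 0.0758 FPKM, 17 were listed at 0 in every library, and 4 exceeded 0.5 FPKM. In single groups Hist1h2bc reached the lowest variant genes. In ETO it was at 6.77 and 6.82 FPKM, above the H1fx row (4.95 and 4.20). In Released it was at 10.1 and 10.7 FPKM, above the H1fx row (9.43 and 9.49) and H2afy2 (8.95 and 8.41). In Control its libraries (8.84 and 8.09 FPKM) overlapped those of both. Normalised counts, on which all tests below rest, are read counts that the authors had divided by 1 factor per library, and 3 reads correspond to 2.07 to 4.04 normalised counts. Of the 70 Hist rows, 26 were above 3 reads in at least 1 library and 27 had some value but never more than 3 reads. Hist1h2bc, Hist1h1c and the row of Hist3h2a were above 3 reads in every library.

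**Figure D1:**
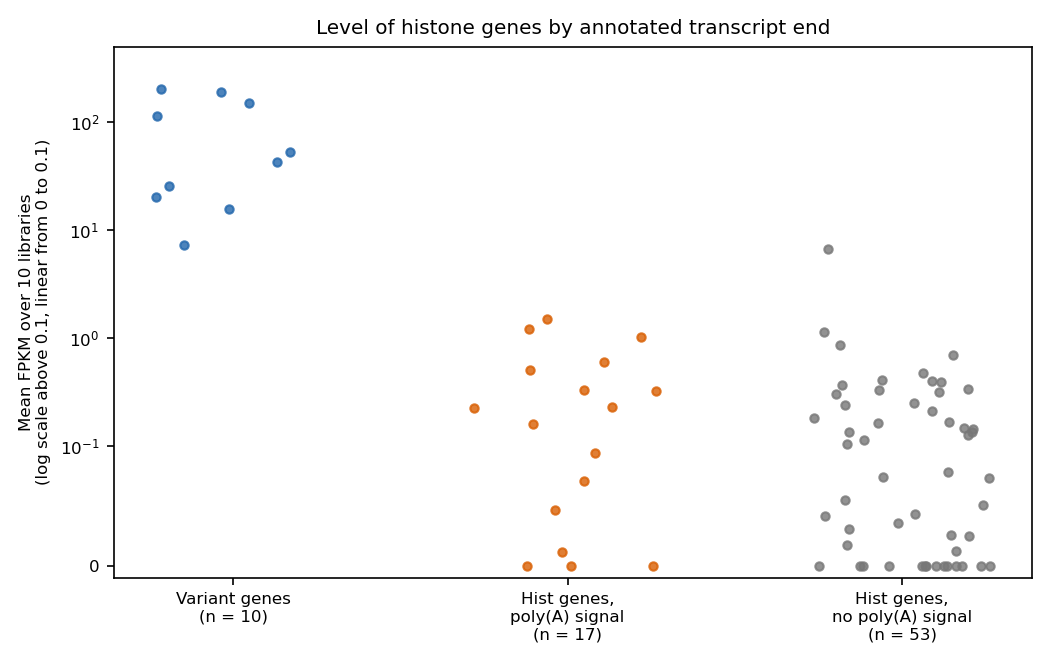
Mean FPKM over the 10 libraries of each histone gene (points; log axis above 0.1, linear from 0 to 0.1), for the 10 variant genes, the 17 Hist genes with an annotated poly(A) signal in the last 40 bases of a transcript, and the 53 without one. In this mean all variant genes lie above all Hist genes, though not in every group. The highest Hist point, at 6.62 FPKM, is Hist1h2bc.

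The 70 Hist rows together took 0.00155% and 0.00154% of the signal of the KO libraries, against 0.00187% and 0.00196% of the WT libraries. They took 0.00333% and 0.00323% in ETO and 0.00328% and 0.0034% in Released, against 0.00245% and 0.00213% in Control. The Hist share was thus lower in both KO than in both WT libraries, and higher in all ETO and Released than in both Control libraries. Such shares do not depend on the factor per library, but 2 libraries against 2 cannot reach an exact permutation p under 0.05. Hist1h2bc alone made up 27.0% to 66.8% of the Hist signal of a library. The 64 rows below the filter summed to 57.3 and 71.6 normalised counts in KO, 79.6 and 71.7 in WT, 51.2 and 39.7 in ETO, 61.7 and 56.7 in Released, and 38.4 and 38.4 in Control. The variant genes took 0.118% and 0.116% in KO, 0.127% and 0.123% in WT, 0.117% and 0.111% in ETO, 0.106% and 0.110% in Released, and 0.117% and 0.114% in Control.

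The same variant genes led in level per unit of length in every group. H3f3b, H2afy, H2afv and the H2afx row held the 4 highest levels in each group. In ETO, H3f3b stood at 261 ± 18.4, the H2afx row at 75.4 ± 0.665, H2afy at 115 ± 13.0 and H2afv at 78.3 ± 5.55 FPKM (SD, n = 2). In Control, H3f3b stood at 197 ± 7.46, the H2afx row at 170.3 ± 2.52, H2afy at 159.8 ± 5.44 and H2afv at 150.4 ± 3.70 FPKM, a narrower lead of H3f3b. H2afy led in KO (306 ± 3.55 FPKM) and in WT (262 ± 13.7 FPKM), and H3f3b led in the other groups. The lowest level was that of H1fx, except in Released, where H2afy2 was lower. In Control the libraries of H2afy2 and H1fx overlapped (9.65 ± 1.45 and 9.21 ± 0.698 FPKM), as did those of H2afj and H2afz (35.1 ± 8.88 and 31.6 ± 0.487 FPKM), so these neighbours have no order there.

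Libraries held an estimated 9783467 to 16778540 reads, and 16056 genes were tested. Kat8 measured 222 and 205 normalised counts in KO, against 433 and 357 in WT, a log2 change of -0.88 (adjusted p = 3.64e-05). Exons inside and outside the deletion are counted together in that row. All 7 embryonic stem cell markers were above 3 reads in every library, with sums of 35983 and 37982 in ETO, 59845 and 59893 in Released, and 59594 and 59509 in Control. The 5 trophectoderm markers summed to 5163 and 5476 in ETO, 1010.2 and 912 in Released, and 408 and 401 in Control, with Krt8 and Krt18 holding most of the ETO sum. Of the transcription factors among them, Cdx2 measured 5.93 and 7.47 in ETO, 55.8 and 43.4 in Released, and 61.6 and 35.3 in Control. Cdx2 was at 0 in KO and WT. Eomes went the other way, at 536 and 515 in ETO, 160 and 149 in Released, and 77.3 and 95.4 in Control. Elf5 stayed low, at 3.95 and 1.66 in ETO. The 5 primitive endoderm markers summed to 297 and 287 in ETO, 75.8 and 77.3 in Released, and 40.7 and 47.7 in Control. Gata4 and Gata6 held most of the ETO sum, while Sox17 (5.93 and 7.47) and Sox7 (0.988 and 1.66) stayed low. Foxa2 was also higher in ETO, at 24.7 and 26.6, against 2.76 and 7.03 in Released and 5.50 and 4.15 in Control. The 8 fibroblast markers summed to 169 and 168 in ETO, 86.1 and 71.5 in Released, and 66.0 and 62.3 in Control. Of these, Col1a1 alone measured 152 and 154 in ETO, against 39.6 and 40.5 in Control. The other fibroblast markers were low and showed no such rise, with Thy1 at 10.9 and 5.81 in ETO, against 9.91 and 10.4 in Control. The part of these markers in the changes below was not tested. In bulk RNA, fewer cells of a type and less RNA per cell cannot be told apart.

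KO cells were set against WT cells to see which histone transcripts differ with loss of Mof. H2afz rose and H1f0 and H1fx fell, with smaller changes of H3f3b (up) and H2afv and H2afx (down). Of the 10 variant genes, 2 rose, 4 fell and 4 were not called at a limma adjusted p under 0.05 (Benjamini-Hochberg over all tested genes), where 37.9% of all tested genes were called (24.6% rose and 13.3% fell). Their median log2 change was 0.01, against 0.08 over all tested genes. Of all called genes 64.8% were higher in KO, but 52.9% with TMM factors and 37.0% with total signal as the factor. Of the 6 tested Hist rows, 0 rose and 1 fell, with a median of -0.42. The row that fell, Hist2h2be, passed the filter only through its WT libraries.

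H2afz encodes H2A.Z, which sits at promoters and is exchanged for H2A by SRCAP and p400. It measured 511 and 567 normalised counts in KO, against 299 and 323 in WT. Both KO libraries were above both WT libraries, and the log2 change was 0.79 (SE 0.10, adjusted p = 1.95e-05). H2afv, on chromosome 11, encodes the second H2A.Z protein, which is nearly the same. It measured 1036 and 959.5 in KO, against 1193 and 1151 in WT, lower in both KO libraries by a log2 change of -0.23 (SE 0.07, adjusted p = 0.0214). It did not pass in a fit per experiment, in FPKM, or without WT replicate 1 (-0.21) or KO replicate 2 (-0.18), and total signal as the factor gave -0.40.

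Reads of H2afz can also be placed on Gm8203, a processed pseudogene of it (chr6:116173737-116174123, plus strand), whose 338 words of 50 bases all occur in H2afz transcripts. Gm8203 measured 2296 and 2355 in KO, against 1519 and 1981 in WT, and in total held 5.20 times the signal of H2afz. Its own log2 change was 0.42 (SE 0.09, adjusted p = 0.00197). With both rows summed, a choice made after the values were seen, the KO change of H2afz was 0.48 (SE 0.08, adjusted p = 0.000421), so its direction held and its size depended on where reads were placed.

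H3f3a and H3f3b, on chromosomes 1 and 11, encode the same protein, H3.3, the H3 form that is placed outside replication. H3f3b measured 5111 and 5364 in KO, against 4317 and 4587 in WT, and its log2 change was 0.23 (SE 0.06, adjusted p = 0.00992). The KO libraries were above the WT libraries. The call was lost with other factors per library (0.16 with TMM or median-of-ratios factors and 0.07 with total signal), in the FPKM values, without trend and robust fitting, and without KO replicate 2 (0.20). H3f3a measured 609 and 518 in KO, against 394 and 452 in WT, with a log2 change of 0.41 (SE 0.16, adjusted p = 0.0543). Its libraries did not overlap either, and it was not called, except in 6 of the alternatives. One of these added its pseudogene copy Gm6421 (0.36, adjusted p = 0.0143).

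H1f0 encodes H1.0, a linker histone that is known to build up in resting and differentiated cells. It measured 496 and 529 in KO, against 878 and 779 in WT, a log2 change of -0.69 (SE 0.09, adjusted p = 2.32e-05). H1fx, another linker histone gene, shares its row with the predicted gene AC153872.1, so the source of its reads is uncertain. That row measured 71.9 and 73.5 in KO, against 149 and 111 in WT, a log2 change of -0.82 (SE 0.17, adjusted p = 0.00178). For both linker rows all KO libraries lay below all WT libraries, and no alternative ended either call.

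H2afx encodes H2A.X, which is phosphorylated around DNA breaks, and is counted in 1 row with the overlapping gene Dpagt1, an enzyme of N-glycan synthesis. The row measured 1774 and 1622 in KO, against 2073 and 1831 in WT, a log2 change of -0.20 (SE 0.07, adjusted p = 0.0345). The groups did not overlap, but 10 alternatives ended the call, among them leaving out WT replicate 1 (-0.11) or KO replicate 2 (-0.13) and leaving out either Control or either Released library, which changes only the shared spread. H2afy and H2afy2 encode the macroH2A proteins, with a large domain outside the nucleosome, and H2afj a replication-independent H2A. H2afy measured 4476 and 4299 in KO, against 4067 and 4010.5 in WT (log2 change 0.12, adjusted p = 0.183). H2afy2 measured 817 and 853 in KO, against 795 and 812 in WT (0.06, adjusted p = 0.681). H2afj measured 582 and 628 in KO, against 714 and 544 in WT (-0.04, SE 0.13, adjusted p = 0.817), with overlapping libraries. None of these 3 genes was called.

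Hist2h2be, an H2B gene on chromosome 3, measured 8.07 and 7.85 in KO, against 23.1 and 31.4 in WT. It was the 1 Hist row called, at a log2 change of -1.64 (SE 0.42, adjusted p = 0.00616), and both KO libraries were below both WT libraries. Outside WT only ETO replicate 1 reached the filter, so Hist2h2be could be tested only through WT, the group where it was high. It no longer passed without WT replicate 2 (-1.43) or in FPKM (-1.40). Hist1h2bc, also an H2B gene, measured 95.5 and 83.8 in KO, against 59.2 and 76.6 in WT (log2 change 0.40, SE 0.16, adjusted p = 0.0541), which was not called as fitted. It was called without WT replicate 2 (0.59) and with a filter of 50 normalised counts. The linker histone gene Hist1h1c measured 21.5 and 13.1 in KO, against 21.3 and 24.5 in WT, and the H2A gene Hist3h2a, in a row merged with the overlapping Trim17, measured 18.8 and 22.4 in KO, against 30.2 and 26.0 in WT. Neither of these was called (-0.42 and -0.43, SE 0.33 and 0.27). Hist1h4i measured 2.69 and 5.24 in KO, against 1.85 and 1.96 in WT, and Hist2h3c1 0 and 1.31 in KO, against 3.70 and 0.982 in WT, both too near 3 reads for a fold.

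**Figure D2:**
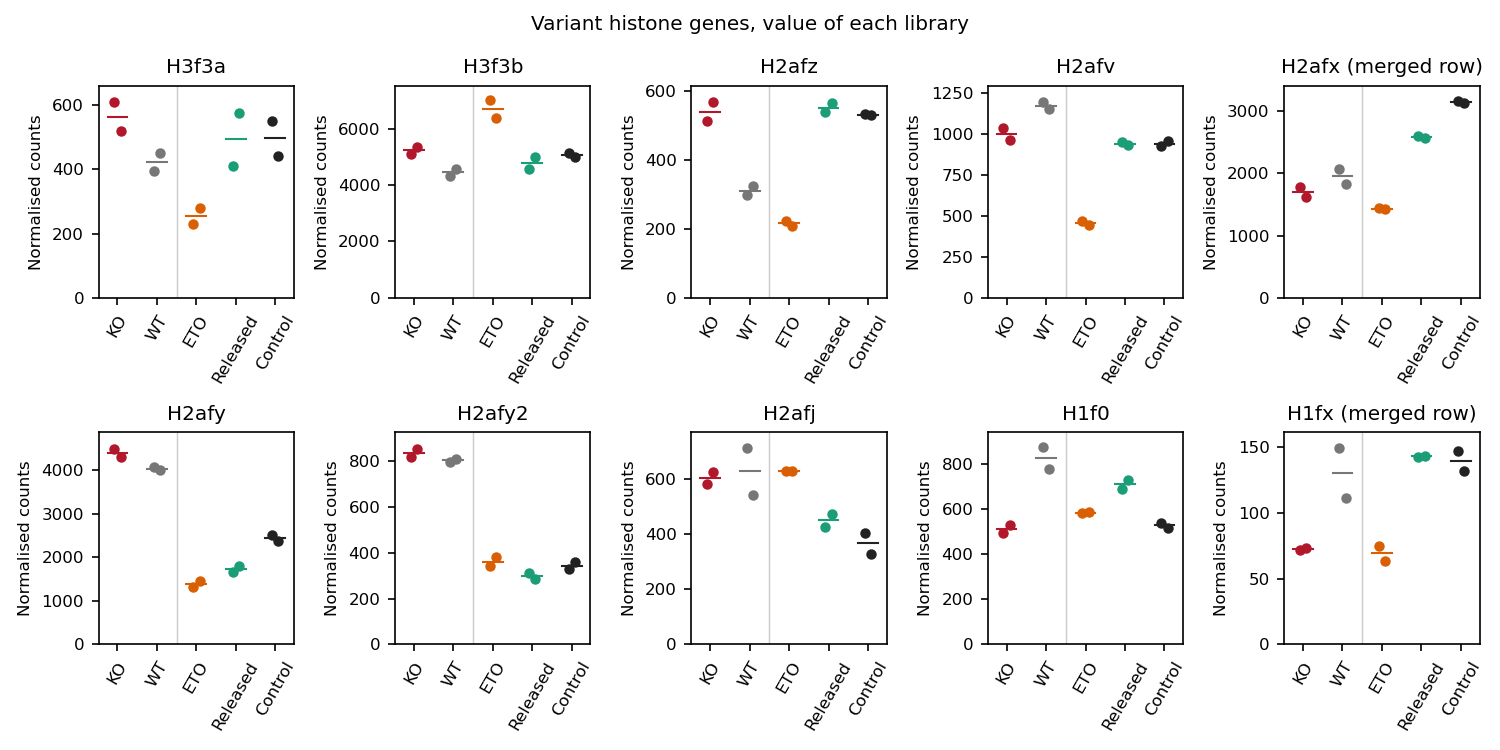
Normalised counts of each variant histone gene (vertical axes, each from 0) in each library (points; bars are group means), for KO and WT cells left of the grey line and ETO, Released and Control cells right of it. H2afz is higher in KO (511 and 567) than in WT (299 and 323), and lowest in ETO (222 and 209), where H3f3b is highest (7026 and 6369.9).

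The genes that make and place histones were set beside the histone genes in lists, to be read against the 24.6% of all tested genes that rose and the 13.3% that fell in KO, a balance that depended on the factor per library. Of 25 tested genes of histone mRNA transcription and 3′ processing, 9 rose and 5 fell in KO (median log2 change 0.11). Among these, Srrt, whose product ARS2 acts with the cap-binding complex and whose row also holds Mir7036, measured 1738 and 1593 in KO, against 1004 and 1067 in WT (0.68, adjusted p = 2.69e-06). Nfya, a subunit of the CCAAT-binding factor NF-Y, measured 1082 and 1060.3 in KO, against 806 and 784 in WT (0.43, adjusted p = 0.000182), and its partner Nfyc also rose (0.62, adjusted p = 0.000396). Slbp measured 887 and 918 in KO, against 776 and 903 in WT (0.11, adjusted p = 0.321). Of 34 chaperones and deposition factors, 20 rose and 1 fell in KO (median 0.22), with Ino80, an H2A.Z remodeller, at 0.60, Ssrp1, a subunit of the chaperone FACT, at 0.44 and Rbbp4, a subunit of CAF-1, at 0.45. Of 22 S phase markers, 6 rose and 2 fell (median 0.05), near the share of all tested genes.

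The second comparison, ETO against Control, asks how histone transcripts differ between cells given etomoxir and cells given water. Most variant genes fell, among them H2afz, H2afv, H2afx, H3f3a, H2afy and H1fx, while H3f3b and H2afj rose. Of the 10 variant genes, 2 rose and 6 fell, where 60.8% of all tested genes were called (26.8% rose and 34.0% fell). Their median log2 change was -0.89, against -0.09 over all tested genes. Of the 6 tested Hist rows, 3 rose and 0 fell, with a median of 1.23. Among those that rose, Hist1h4i and Hist2h3c1 reached 10 normalised counts only in ETO and Released libraries. They could be tested only through groups where they were high, so the filter tilts this count and median upward. With a filter of 50, 1 Hist row rose. With total signal as the factor, 4 variant genes rose, and of all called genes 57.0% were higher in ETO, against 44.1% as fitted.

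The H3.3 pair moved in opposite directions. H3f3a measured 231 and 279 in ETO, 411 and 575 in Released, and 552 and 441 in Control. H3f3b measured 7026 and 6369.9 in ETO, 4574 and 5008 in Released, and 5125 and 4986 in Control. For H3f3a both ETO libraries were below all others and for H3f3b both were above all others. The ETO changes were -0.96 for H3f3a (SE 0.16, adjusted p = 0.000117) and 0.40 for H3f3b (SE 0.06, adjusted p = 5.99e-05), and no alternative ended either call. The ratio of H3f3a to H3f3b in normalised counts was 0.0328 and 0.0438 in ETO, 0.0899 and 0.115 in Released, and 0.108 and 0.0885 in Control. It was 0.119 and 0.0966 in KO, against 0.0912 and 0.0985 in WT, which overlap. The pseudogene copies went the same way as their parents in ETO, with Gm6421 at -0.58 (adjusted p = 0.000327) and Gm37486, a copy of H3f3b, at 0.43 (adjusted p = 0.0105).

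Both H2A.Z genes fell in ETO. H2afz measured 222 and 209 in ETO, 537 and 564 in Released, and 532 and 529 in Control. H2afv measured 471 and 446 in ETO, 948 and 932 in Released, and 927 and 955 in Control. Both ETO libraries were less than all Released and Control libraries, at -1.29 for H2afz (SE 0.10, adjusted p = 1.41e-08) and -1.04 for H2afv (SE 0.07, adjusted p = 9.96e-09). The ratio of H2afz to H2afv was 0.472 and 0.469 in ETO, 0.566 and 0.605 in Released, and 0.574 and 0.554 in Control. In the Mof line it was 0.494 and 0.591 in KO, against 0.251 and 0.281 in WT. The WT libraries thus stood below all other libraries in this ratio, which does not depend on the factor per library. Gm8203 fell by 1.09 on the log2 scale in ETO (adjusted p = 5.43e-08).

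The row of H2afx and Dpagt1 measured 1434 and 1431 in ETO, 2593 and 2559 in Released, and 3152 and 3125 in Control. Its ETO change was -1.13 (SE 0.07, adjusted p = 2e-09), and the 3 groups did not overlap. Of the macroH2A genes, H2afy measured 1314 and 1445 in ETO, 1662 and 1809 in Released, and 2521 and 2370.5 in Control. The log2 change of H2afy in ETO was -0.83 (SE 0.07, adjusted p = 4.57e-08), or -0.48 in FPKM. H2afy2 measured 340.4 and 382 in ETO, 314 and 284 in Released, and 329.7 and 359 in Control, and was not called in ETO (0.07, SE 0.09, adjusted p = 0.556). The ratio of H2afy to H2afy2 was 3.86 and 3.78 in ETO, 5.30 and 6.38 in Released, and 7.65 and 6.61 in Control, and 5.48 and 5.04 in KO, against 5.11 and 4.94 in WT. Both ETO libraries had the lowest ratio of all libraries in normalised counts, but not in FPKM, where it was 13.2 and 9.44 in ETO, 11.5 and 15.7 in Released, and 19.0 and 14.6 in Control, with 12.0 and 11.3 in KO, against 11.7 and 10.8 in WT.

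**Figure D3:**
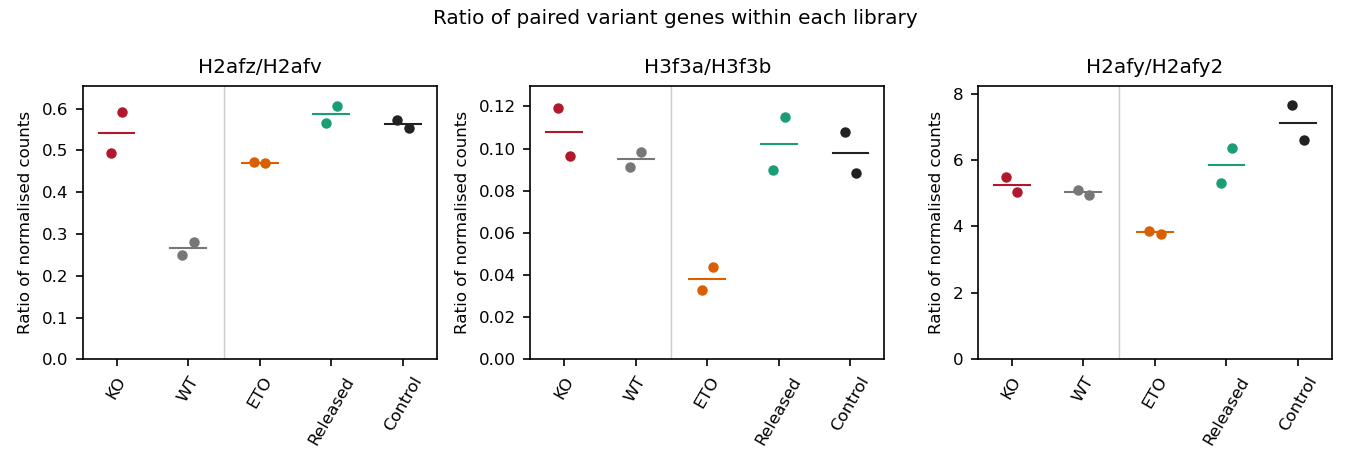
Ratio of normalised counts of 3 pairs of related variant genes (vertical axes from 0) in each library (points; bars are group means), for KO and WT left of the grey line and ETO, Released and Control right of it. H2afz over H2afv is lowest in WT (0.251 and 0.281), and H3f3a over H3f3b is lowest in ETO (0.0328 and 0.0438).

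H2afj measured 628 and 629 in ETO, 427 and 475 in Released, and 406 and 327 in Control. Both ETO libraries were above the others, and the ETO change was 0.78 (SE 0.13, adjusted p = 5.89e-05). Of the linker genes, the H1fx row measured 75.0 and 63.6 in ETO, 143 and 144 in Released, and 147 and 132 in Control, and fell in ETO, to 0.499 times the Control level on the fitted scale (SE 0.17 in log2, adjusted p = 0.000125). H1f0 measured 583 and 589 in ETO, 691 and 731 in Released, and 539 and 519 in Control. Its ETO libraries were above its Control libraries, but the change of 0.15 was not called (SE 0.09, adjusted p = 0.149), except with TMM, median-of-ratios or total-signal factors.

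**Figure D4:**
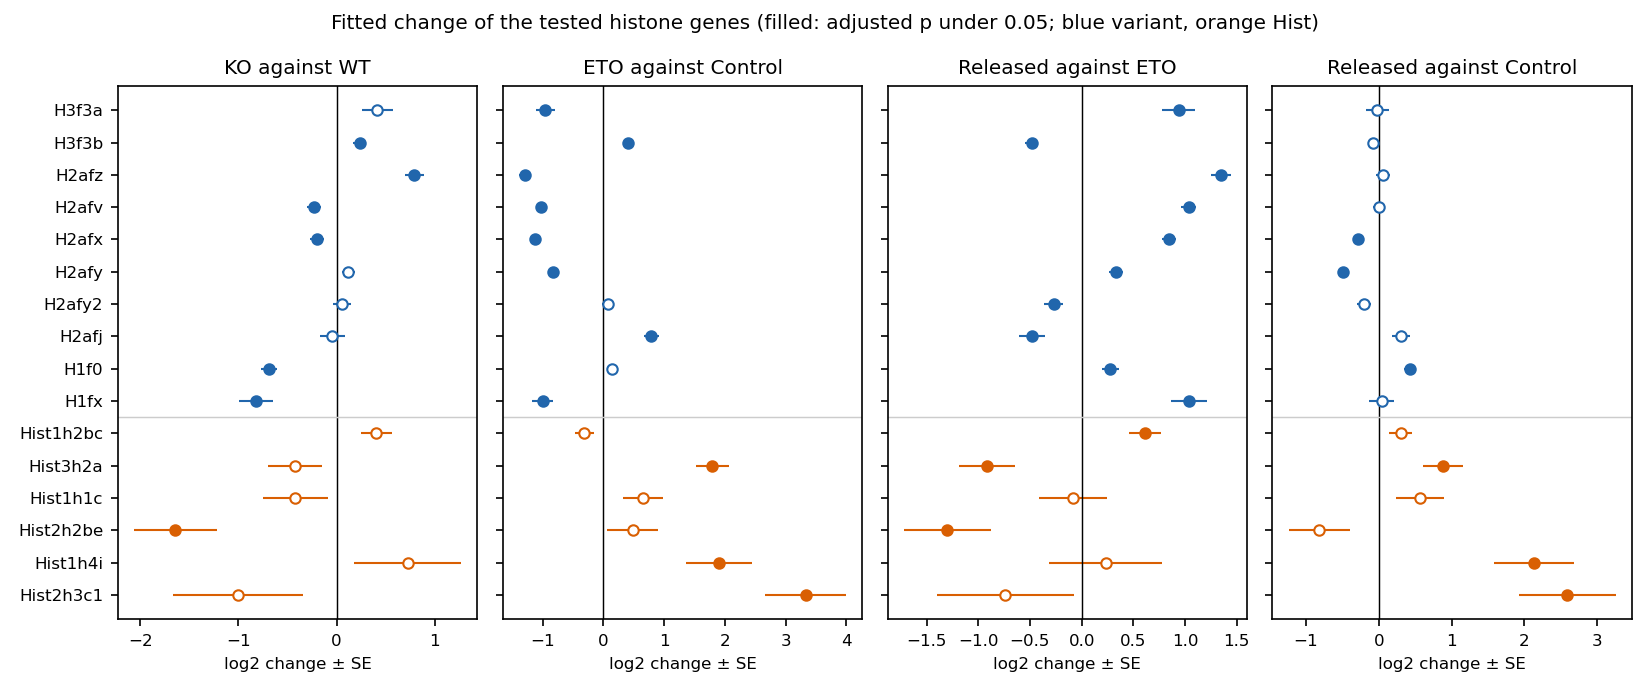
Fitted log2 change with its SE (horizontal axes, scaled separately per panel) of the 16 tested histone genes in 4 comparisons, filled where the limma adjusted p is under 0.05. Of the variant genes (blue), 6 fell and 2 rose in ETO against Control, and 7 rose and 3 fell in Released against ETO. In ETO 3 of the 6 Hist rows (orange) rose, among them Hist1h4i and Hist2h3c1, which passed the filter only through ETO and Released.

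The 3 Hist rows that rose in ETO were those of Hist3h2a, Hist1h4i and Hist2h3c1, an H2A, an H4 and an H3 gene. The row of Hist3h2a and Trim17 measured 68.3 and 65.2 in ETO, 33.9 and 36.0 in Released, and 22.0 and 15.6 in Control. The 3 groups did not overlap, and the ETO change was 1.79 (SE 0.27, adjusted p = 3.81e-05). Of the words of 50 bases in Hist3h2a transcripts, 31.5% also occur in those of Trim17, so reads of the 2 genes cannot be fully separated. Hist1h4i measured 21.7 and 13.3 in ETO, 19.3 and 21.1 in Released, and 6.60 and 2.08 in Control, and rose in ETO by 1.90 (SE 0.54, adjusted p = 0.00695). That call was lost without ETO replicate 1 (1.56) or Control replicate 2 (1.25). ETO held 38 reads of Hist1h4i against 8 in Control, a ratio of 4.01 with a 95% exact interval for counting error of 1.84 to 9.96. Hist2h3c1 measured 16.8 and 23.2 in ETO, 7.57 and 17.1 in Released, and 1.10 and 1.04 in Control. ETO held 45 reads against 2 in Control, so that the ratio was 19.0 with a 95% exact interval for counting error of 4.97 to 162. The fitted change of 3.33 (SE 0.66, adjusted p = 0.000449) depended on the pseudocount of 1 and was 2.03 with 5. All words of Hist2h3c1 occur in Gm20634, an overlapping transcript, and 34.7% in Hist2h3c2.

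The other tested Hist rows were not called in ETO. Hist1h2bc measured 143 and 144 in ETO, 215 and 226 in Released, and 187 and 171 in Control, with an ETO change of -0.31 (SE 0.16, adjusted p = 0.0971). Hist1h1c measured 37.6 and 49.8 in ETO, 37.2 and 44.5 in Released, and 35.2 and 20.8 in Control, with an ETO change of 0.66 (SE 0.33, adjusted p = 0.0989). Hist1h1c was called without Control replicate 1 (1.02), with total signal (0.82) and in a fit per experiment (0.66). Hist2h2be measured 12.8 and 9.13 in ETO, 4.13 and 3.52 in Released, and 7.71 and 7.26 in Control (0.48, SE 0.42, adjusted p = 0.337). The ETO libraries of Hist1h2bc lay below its Control libraries, and those of Hist1h1c and Hist2h2be above theirs. How often libraries lay apart in this way over all tested genes was not counted. It therefore adds no support to these changes, which were not called. Among the 64 rows below the filter, Hist1h4h, named after its values were seen, was above 3 reads only in Released, at 8.26 and 8.20 normalised counts.

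**Figure D5:**
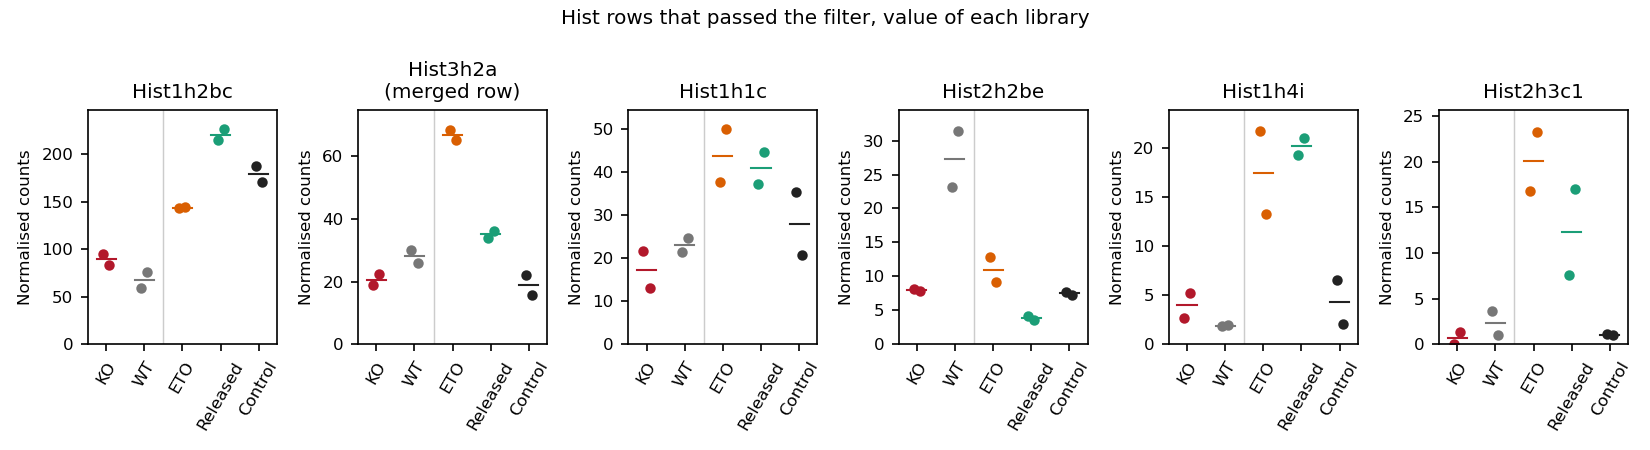
Normalised counts of the 6 Hist rows that passed the filter (vertical axes, each from 0) in each library (points; bars are group means), for KO and WT left of the grey line and ETO, Released and Control right of it. Hist3h2a (68.3 and 65.2) is highest in ETO, Hist1h2bc (215 and 226) in Released and Hist2h2be (23.1 and 31.4) in WT.

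The gene lists were set beside the 34.0% of all tested genes that fell and the 26.8% that rose in ETO. Of 25 genes of histone mRNA transcription and processing, 21 fell and 0 rose (median log2 change -0.55), beside 22 of 22 S phase markers (median -1.07), a list that also holds Slbp. Slbp measured 498 and 475 in ETO, 1009.5 and 998 in Released, and 1056 and 1054 in Control (-1.12, adjusted p = 1.28e-08). Srrt (-0.98) and Ncbp2 (-1.18), of the cap-binding complex, fell as well. Among the S phase markers, Rrm2, a subunit of ribonucleotide reductase, measured 1427 and 1375 in ETO, 3044 and 3041 in Released, and 3388 and 3375 in Control (-1.27, adjusted p = 4.69e-11). The cyclin gene Ccne1 measured 454 and 449 in ETO, 1340.1 and 1332 in Released, and 1423 and 1418 in Control (-1.65). Of 34 chaperones and deposition factors, 24 fell and 3 rose (median -0.38). Nasp, a chaperone of H3 and H4, measured 3373 and 3024 in ETO, 6662 and 6746 in Released, and 8513 and 8912 in Control (-1.45, adjusted p = 2.26e-09), and Set, a chaperone of nucleosome assembly, fell by 1.42. Ubn1, a subunit of the HIRA complex that places H3.3, rose: it measured 1877 and 2092 in ETO, 854 and 853 in Released, and 798 and 799 in Control (1.31, adjusted p = 6.52e-10).

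After release from etomoxir, H2afz, H2afv, H2afx, H3f3a, H2afy, H1fx and H1f0 rose, while H3f3b, H2afj and H2afy2 fell. In Released against ETO, 7 of the 10 rose and 3 fell, where 57.7% of all tested genes were called (33.1% rose and 24.6% fell), and their median log2 change was 0.59, against 0.10 over all. Of all called genes 57.4% were higher in Released, or 45.8% with total signal as the factor. The comparisons with ETO and with Control share libraries, so their values are given side by side and not as independent results. H2afz rose by 1.35 (SE 0.10, adjusted p = 1.12e-08), the H1fx row by 1.04 (SE 0.17, adjusted p = 9.87e-05) and H2afv by 1.03 (SE 0.07, adjusted p = 1.26e-08). H3f3a rose by 0.94 (SE 0.16, adjusted p = 0.000161), or 0.59 with Gm6421 added, and the H2afx row by 0.85 (SE 0.07, adjusted p = 6.3e-08). The Released libraries of these genes, given above, all lay above the ETO libraries. H3f3b fell by 0.48 (SE 0.06, adjusted p = 1.16e-05), as did H2afj (SE 0.13, adjusted p = 0.00397), whose call was lost in the FPKM values.

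Smaller changes after release were less stable. H2afy rose by 0.33 (SE 0.07, adjusted p = 0.000597), but by 0.03 in the FPKM values, where it was not called, and by 0.20 with total signal as the factor. H1f0 rose by 0.28 (SE 0.09, adjusted p = 0.0109), a call lost with TMM or median-of-ratios factors (0.18 each) or total signal (0.14), and without ETO replicate 1 (0.27) or Released replicate 2 (0.24). H2afy2 fell by 0.27 (SE 0.09, adjusted p = 0.0221), which did not pass in FPKM or without ETO replicate 2 (-0.19) or Released replicate 2 (-0.20).

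Of the 6 Hist rows, 1 rose and 2 fell in Released against ETO (median log2 change -0.41). Hist1h2bc rose by 0.61 (SE 0.16, adjusted p = 0.00355), and no alternative ended that call. Hist2h2be fell by 1.30 (SE 0.42, adjusted p = 0.015), which did not pass in FPKM or without ETO replicate 1 (-1.07) or Released replicate 2 (-1.21). Its value in Released replicate 2, 3.52 normalised counts, was at 3 reads, so the size of this fall is uncertain. Hist3h2a fell by 0.91 (SE 0.27, adjusted p = 0.0099), a call lost without ETO replicate 1 (-0.88) or Released replicate 1 (-0.87). Beside 33.1% of all tested genes that rose and 24.6% that fell, 19 of 25 processing genes rose and 0 fell (median 0.42), with Srrt at 1.07, Ncbp2 at 1.34 and Coil, the coilin of Cajal bodies, at 1.01. Of the S phase markers 22 of 22 rose (median 0.92), and of the chaperones 25 of 34 rose and 2 fell (median 0.42), with Set at 1.20, Chaf1b, of CAF-1, at 0.94 and Ubn1 at -1.21.

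Released against Control asks what remained 4 days after etomoxir. Control cells are listed without these added days, so earlier etomoxir and time in culture cannot be told apart. Of the 10 variant genes, 1 rose, 2 fell and 7 were not called, where 12.5% of all tested genes were called (7.03% rose and 5.51% fell), and the median log2 change was -0.01, against 0.01 over all. H2afy stayed lower, at a log2 change of -0.50 (SE 0.07, adjusted p = 0.000259), with both Released libraries below both Control libraries, and was not called in the FPKM values (-0.45). H1f0 was higher, at 0.43 (SE 0.09, adjusted p = 0.00403), which did not pass in FPKM or without Control replicate 2 (0.40) or Released replicate 2 (0.39). The H2afx row was lower, at -0.28 (SE 0.07, adjusted p = 0.0145), which did not pass in FPKM, without trend and robust fitting, or without either Control or either Released library (-0.29 to -0.28). The changes that were not called were 0.05 for H2afz (SE 0.10), -0.00 for H2afv (SE 0.07), -0.02 for H3f3a (SE 0.16), -0.08 for H3f3b (SE 0.06), 0.04 for H1fx (SE 0.17), -0.20 for H2afy2 (SE 0.09) and 0.30 for H2afj (SE 0.13).

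Of the 6 Hist rows, 3 rose in Released against Control and 0 fell (median log2 change 0.73), each by a call that single libraries decided. Of all tested genes, 7.03% rose and 5.51% fell. Hist1h4i and Hist2h3c1 passed the filter only through ETO and Released libraries, so the filter tilts this count and median upward. Hist1h4i rose by 2.13 (SE 0.54, adjusted p = 0.0186), with 46 reads in Released against 8 in Control. That call was lost in the FPKM values and without Control replicate 2 (1.48), Released replicate 1 (2.19) or Released replicate 2 (2.07). The ratio of Hist1h4i in Released to Control was 4.67, with a 95% exact interval for counting error of 2.18 to 11.5. Hist2h3c1 had 26 reads in Released against 2 in Control, a ratio of 10.6 with a 95% exact interval for counting error of 2.64 to 91.8. Its fitted change of 2.59 (SE 0.66, adjusted p = 0.0188) was lost as a call in the FPKM values and without Control replicate 1 (2.61), Control replicate 2 (2.57) or Released replicate 2 (2.05), and was 1.46 with a pseudocount of 5. Hist3h2a rose by 0.88 (SE 0.27, adjusted p = 0.0476), a call lost with no filter, in FPKM (0.69), and on leaving out any 1 library of ETO, Released or Control (0.65 to 1.11). Of the lists, 0 of 25 processing genes were called (limma; the smallest adjusted p was 0.0726, of Cpsf2), 1 of 22 S phase markers fell and 3 of 34 chaperones fell, Supt16 of FACT (-0.36), Nasp (-0.38) and Anp32e, a remover of H2A.Z (-0.28).

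Of 5 Hist genes for which polyadenylated transcripts have been described in human cells, 3 passed the filter, namely Hist1h2bc, Hist1h1c and Hist2h2be. Of 3 testis-specific Hist genes 0 passed it. The values of the 3 genes that passed are those given above.

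Promoters were read from RefSeq windows of GRCm38.p6, each of 300 bases around an annotated start, for 9 variant genes and 61 Hist genes. The box CCAAT, on either strand, was found in 6 of 9 variant windows (66.7%) and 53 of 62 Hist windows (85.5%), against 37.4% of all 32851 windows. The TATAAA box was found in 1 of 9 variant and 35 of 62 Hist windows (56.5%), against 13.6% of all. The windows of both H2A.Z genes are shown because the 2 genes fell together in ETO and differed in KO, with CCAAT or its complement in capitals.
H2afz (chr3:137864237-137864536, plus strand): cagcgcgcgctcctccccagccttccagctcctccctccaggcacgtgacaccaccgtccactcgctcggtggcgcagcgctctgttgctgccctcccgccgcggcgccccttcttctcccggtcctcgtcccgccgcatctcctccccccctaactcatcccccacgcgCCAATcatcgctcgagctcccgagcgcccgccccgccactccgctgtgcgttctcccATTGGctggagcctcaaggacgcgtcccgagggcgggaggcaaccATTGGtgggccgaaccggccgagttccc
H2afv (chr11:6444394-6444693, minus strand): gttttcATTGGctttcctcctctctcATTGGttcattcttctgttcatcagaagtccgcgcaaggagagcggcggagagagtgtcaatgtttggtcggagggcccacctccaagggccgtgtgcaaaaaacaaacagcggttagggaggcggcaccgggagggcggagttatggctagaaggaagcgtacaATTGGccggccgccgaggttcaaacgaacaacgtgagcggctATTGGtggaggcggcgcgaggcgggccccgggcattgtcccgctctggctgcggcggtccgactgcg
The window of H2afz held 3 such boxes and that of H2afv held 4. These matches describe the letters of the windows and show no binding.

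The KO and ETO changes were also set against each other in 1 test per gene, in which the cell line and experiment cannot be told apart from the kind of change. Of the 10 variant genes, 5 had a higher and 2 a lower change in KO than in ETO, where 54.5% of all tested genes were called (32.3% higher and 22.2% lower). H2afz showed the widest difference of these, rising in KO and falling in ETO, with a difference of log2 changes of 2.09 (SE 0.13, adjusted p = 1.1e-08). H1fx fell in both, and its changes were not called as different (0.18, SE 0.24, adjusted p = 0.552). Of the 6 Hist rows, 1 had a higher and 3 a lower change in KO. Among those lower, Hist2h3c1 passed the filter only through ETO and Released, and Hist2h2be only through WT.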

How the data were processed

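The values were deposited as a gene table of normalised counts and one of FPKM for 10 libraries. Reads were single-end, and TopHat2 2.1.1, SAMtools 1.5, deepTools and mm10 are named in the submitters' processing notes; the program and annotation behind the tables and the use of strand are not given in the sources used here. The authors' deposited counts are a signal: of values under 20 reads, 88.9% to 90.3% were whole within 0.1 read after multiplying by 1 factor per library. They are therefore not raw counts and were tested with limma 3.58.1 (R 4.3.3) on log2(value + 1), with 1 mean per group, trend and robust fitting, and Benjamini-Hochberg adjustment over 16056 genes with at least 10 normalised counts in at least 2 libraries. This is a two-sided test with a threshold of 0.05, and fold changes on this scale understate changes of low genes. Rows of the same name were summed. The FPKM values deposited by the authors were tested as an alternative on log2(FPKM + 0.1), with at least 0.5 in at least 2 libraries. Intervals and the limit of 3 reads cover counting error only.

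All variant genes and all tested Hist rows were named. Histone genes and gene lists were chosen with earlier results of these data known. Alternatives were other factors, pseudocounts and filters, a fit per experiment, a replicate block and leaving out each library; summing pseudogene copies was added after seeing the data. The fit was tested on simulated data. Sequences came from GENCODE M21 transcripts and RefSeq promoters (GRCm38.p6). Tables were made with Python 3.11.15, numpy 2.4.6, pandas 2.3.3 and matplotlib 3.10.9.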

Additional observations from a re-analysis of the deposited data

Results flagged for a closer look

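The KO and ETO changes of 11 histone genes, of 10 variant and 6 Hist rows tested, differed in the test of the difference itself. In that test 54.5% of all tested genes were called. The difference is given here as the KO change minus the ETO change on the log2 scale. The cell line and experiment cannot be told apart from the kind of change. The difference was positive for H2afz (2.09), H3f3a (1.37), H2afy (0.95), the H2afx row (0.93), H2afv (0.8) and Hist1h2bc (0.72). H2afz rose in KO and fell in ETO, whereas H2afv and the H2afx row fell in both and by less in KO. The difference was negative for Hist2h3c1 (-4.33), the Hist3h2a row (-2.22), Hist2h2be (-2.12), H1f0 (-0.84) and H2afj (-0.83). H1f0 and Hist2h2be fell in KO and were not called in ETO, and Hist2h3c1, Hist3h2a and H2afj rose in ETO and were not called in KO. Hist2h3c1 was near 3 reads in KO and WT, so its fitted difference depends on the pseudocount and was -2.39 with 5. The difference of Hist1h2bc was lost as a call with median-of-ratios factors (0.54), with total signal (0.38), and without WT replicate 1 (0.53) or Control replicate 1 (0.65). That of H2afj was lost in the FPKM values (-0.84). With total signal the differences of H2afv, the H2afx row and H2afy were 0.47, 0.60 and 0.61, still called.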

How the results depend on the processing

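No log2 change of a histone gene that was called changed direction under any alternative run. Counts of variant genes higher in KO (2 as fitted) came to 1 with TMM, median-of-ratios or total-signal factors, in the FPKM values and without trend and robust fitting, and to 1 to 2 on leaving out a library. Those lower in KO (4) came to 2 in the FPKM values, in a fit per experiment and without merged rows, and to 2 to 4 on leaving out a library. Hist rows higher in KO (0) came to 1 and lower (1) to 0 with a filter of 50, lower to 0 in the FPKM values, and leaving out a library gave 0 to 1 for each. In ETO, variant genes higher (2) came to 4 with total signal, Hist rows higher (3) to 6 with no filter, 1 with a filter of 50 and 5 in FPKM, and Hist rows lower (0) to 3 with no filter and 1 in a fit per experiment. In Released against ETO, variant genes lower (3) came to 1 in FPKM, Hist rows higher (1) to 2 with no filter or in FPKM, and Hist rows lower (2) to 1 with a filter of 50 or without merged rows and 0 to 2 on leaving out a library. In Released against Control, variant genes higher (1) came to 0 in FPKM, 2 in a fit per experiment and 0 to 2 on leaving out a library. Variant genes lower (2) came to 0 in FPKM, 1 without trend and robust fitting or without merged rows, and 1 to 2 on leaving out a library. Hist rows higher (3) came to 1 with a filter of 50, 0 in FPKM and 0 to 3 on leaving out a library. For the difference of the KO and ETO changes, variant genes lower (2) came to 3 with TMM or median-of-ratios factors, where H3f3b was added (-0.34 and -0.35), to 4 with total signal and to 1 in FPKM, Hist rows higher (1) to 0 with median-of-ratios factors or total signal and 0 to 1 on leaving out a library, and Hist rows lower (3) to 5 with no filter, 1 with a filter of 50 and 5 in FPKM. The cause of these moves was not tested.

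The Hist share without merged rows was 0.00135% in KO, 0.00166% in WT, 0.0026% in ETO, 0.00295% in Released and 0.00211% in Control. Without mitochondrial rows in the total it was 0.00158% in KO, 0.00195% in WT, 0.0033% in ETO, 0.00343% in Released and 0.00237% in Control. In FPKM it was 0.00194% in KO, 0.0025% in WT, 0.00308% in ETO, 0.00311% in Released and 0.00203% in Control. The variant share without merged rows was 0.103% in KO, 0.107% in WT, 0.0996% in ETO, 0.0849% in Released and 0.0884% in Control, and without mitochondrial rows 0.119% in KO, 0.111% in Released and 0.119% in Control. In FPKM it was 0.0994% in KO, 0.108% in WT, 0.0903% in ETO, 0.0886% in Released and 0.0902% in Control.

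Replicate numbers did not pair the samples, since differences between replicates correlated at -0.0362 to 0.0812 over genes. With the number as a replicate block the count of Hist rows higher in Released against Control was 2, as Hist3h2a had an adjusted p of 0.0527 (limma), and no other count of histone genes changed. The 64 Hist rows below the filter were not tested as fitted, and with no filter some of them were called, as the counts above show. Few reads limit the precision of these rows.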
